A study of Mus musculus with 13 samples.

Results

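Described here are 35 mouse genes that serve protein folding, quality control and export in the endoplasmic reticulum (ER), together with the sensors and transcription factors of the unfolded protein response. They were taken by gene symbol from a list and not by their values, and they are 35 of the 19537 genes that the arrays name by a single symbol. Each gene was read from its probe set of highest mean, and all 35 were on the array. Hepatic stellate cells (HSC), which hold vitamin A beside the sinusoids and can turn into matrix-secreting myofibroblasts, were measured after 1 day of culture (2 arrays), 7 days (1 array) and 14 days (1 array) in medium with 10% fetal bovine serum. Hepatocytes, Kupffer cells (the resident macrophages of the liver) and liver sinusoidal endothelial cells (LSEC) were freshly sorted and had 3 arrays each. All cells came from untreated C57BL/6 mice aged 6 to 10 weeks. No uncultured HSC were analysed here, so the cell type and the culture cannot be told apart wherever HSC are set against another population.

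Proteins bound for secretion enter the ER through the Sec61 translocon, fold there with the help of the Hsp70 chaperone BiP (encoded by Hspa5), of Hsp90b1, of the lectin chaperones calnexin and calreticulin and of protein disulfide isomerases, and leave in vesicles with a COPII coat. Chains that fail to fold are returned to the cytosol for destruction by the membrane complex that Sel1l and the ubiquitin ligase Syvn1 form. When unfolded protein builds up, the sensors encoded by Ern1, Eif2ak3 and Atf6 start the unfolded protein response. The Ern1 product splices the Xbp1 messenger, the Eif2ak3 product slows translation in a way that favours Atf4, and the Atf6 product is cut to release a transcription factor. Splicing, translation and cleavage are not read by the level of a probe set. In the liver, hepatocytes secrete plasma proteins and HSC in culture secrete collagen.

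Many chaperone genes carry an ER stress response element, ERSE, which the cut form of ATF6 and the spliced form of XBP1 bind together with the general factor NF-Y. The RefSeq promoter table (GRCm38.p6, from 250 bases before to 50 bases after each gene's start) held 30 of the 35 genes. For 25 of the 30 the window lay at the outermost annotated start of the gene. For the other 5 it lay at a start further downstream, by 31 (Eif2ak3), 39 (Sec31a), 128 (Creb3l2), 2695 (Sec24d) and 4596 bases (Edem1). The full ERSE (CCAAT, then 9 bases of any kind, then CCACG, on either strand) was found in 8 of these 30 promoters, or 26.7%, beside 0.119% of all 32851 promoters of the table. Those 8 genes were Calr, Canx, Creld2, Dnajc3, Hsp90b1, Hspa5, Pdia6 and Syvn1, and Hsp90b1 held it at 2 places. The related ERSE-II (ATTGG, then 1 base of any kind, then CCACG) was found in Herpud1 and Dnajb11, which is 6.67% of the promoters of these genes and 0.0365% of all promoters. Because these elements are known from chaperone genes, their higher share here is a description and no test. The shares also differ in counting, with the first window of each of these genes and every window of the table. The following stretches are shown because they let the element be compared between a chaperone, an isomerase, a ligase of ER-associated degradation and the ERSE-II gene Herpud1. They read 5′ to 3′ on the strand of the gene, and the capitals mark the element.

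Hspa5 (chr2:34772010-34772058, plus strand): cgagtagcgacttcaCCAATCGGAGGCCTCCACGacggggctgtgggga
Hsp90b1 (chr10:86705518-86705566, minus strand): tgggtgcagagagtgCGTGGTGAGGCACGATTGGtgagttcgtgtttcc
Calr (chr8:84847060-84847108, minus strand): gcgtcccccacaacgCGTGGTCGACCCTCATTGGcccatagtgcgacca
Pdia6 (chr12:17266476-17266524, plus strand): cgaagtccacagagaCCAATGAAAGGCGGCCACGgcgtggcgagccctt
Syvn1 (chr19:6046517-6046565, plus strand): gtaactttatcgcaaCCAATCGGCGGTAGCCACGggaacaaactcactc
Herpud1 (chr8:94386362-94386402, plus strand): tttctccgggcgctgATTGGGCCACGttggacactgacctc

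In Hspa5, Pdia6 and Syvn1 the element lies in the CCAAT to CCACG direction, and in Hsp90b1 and Calr the stretch shows its reverse complement. Its parts are common by themselves: CCACG was in 76.7% of the promoters of these genes and 32.8% of all promoters, and CCAAT was in 76.7% and 37.4%, counting the copies inside an ERSE. The core of another element bound by XBP1 (TGACGTGG) was in Sec24d and Sec23a, 6.67% of these promoters, and in 0.676% of all. A composite element read by ATF4 (TGATGNAAT) was in 0 of the 30 and in 0.965% of all promoters, which says only that these letters were not in these windows.

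Values are probe-set intensities on a linear scale, and differences are on the scale log2(intensity + 82.7), which understates a change near the low end. The level of one gene is not set against that of another, since probe sets differ in brightness. A gene was called when limma's adjusted p was below 0.05 and the log2 difference was at least 1. Replicates are those the labels name. The labels do not tie them to single animals, and the p-values measure the spread between these arrays. Precision is limited by how few arrays there are.

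The summed intensity of each population's marker list was highest on its own arrays. Hepatocyte markers (10 of 10 on the array, among them Alb, Apoa1 and Ttr) summed to 16795 and 10216 on the 1-day HSC arrays, 1327 and 1297 at days 7 and 14, and 125551 to 130818 on hepatocyte arrays. The 1-day HSC arrays carried 13.2% and 8.01% of the hepatocyte level of these markers. LSEC markers (10 of 10, among them Stab2, Lyve1 and Kdr) stood at 20.2% and 18.9% of the LSEC mean on the 1-day HSC arrays, 3.54% and 3.80% at days 7 and 14, and 20.4% to 24.1% on Kupffer cell arrays. HSC markers (10 of 10, among them Des, Lrat and Reln) summed to 33320 and 34143 at day 1, 32607 at day 7, 29238 at day 14, 2558 to 2882 on hepatocyte arrays, 3952 to 5567 on Kupffer cell arrays and 2002 to 2714 on LSEC arrays. Myofibroblast markers (10 of 10, among them Acta2, Tagln and Col1a1) summed to 40259 and 44982 at day 1, 83440 at day 7, 98793 at day 14, 2369 to 2828 on hepatocyte arrays, 2201 to 2361 on Kupffer cell arrays and 13891 to 14957 on LSEC arrays. On the LSEC arrays Sparc, at 12363 to 13136, made up most of that sum, while Acta2 read 182 to 278. Markers of mesothelial cells and portal fibroblasts (10 of 10) summed to 6398 and 5831 at day 1, 16038 at day 7, 21382 at day 14, 16345 to 18069 on hepatocyte arrays, 1798 to 1958 on Kupffer cell arrays and 2720 to 3552 on LSEC arrays. The list includes Krt8, a keratin gene that is not particular to these cells. Its part in the sum on hepatocyte arrays was not tested, so that sum is not read as fibroblast signal. In that list Fbln2 had 1401 and 1480 at day 1, 8432 at day 7 and 12646 at day 14, and the mesothelial marker Msln had 138 and 134 at day 1, 139 at day 7 and 184 at day 14. Plasma and B cell markers, which matter here because plasma cells are rich in ER, summed to 2473 to 4000 on the Kupffer cell arrays and 934 to 1215 elsewhere. Cholangiocyte markers (6 of 8 on the array) summed to 2045, 2664 and 3289 on the hepatocyte arrays and 915 to 1724 elsewhere. No marker was listed at 0 on any array. The part of these other cells in the results below was not tested, and in such bulk samples fewer cells of a type and less RNA per cell cannot be told apart.

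**Figure D1:**
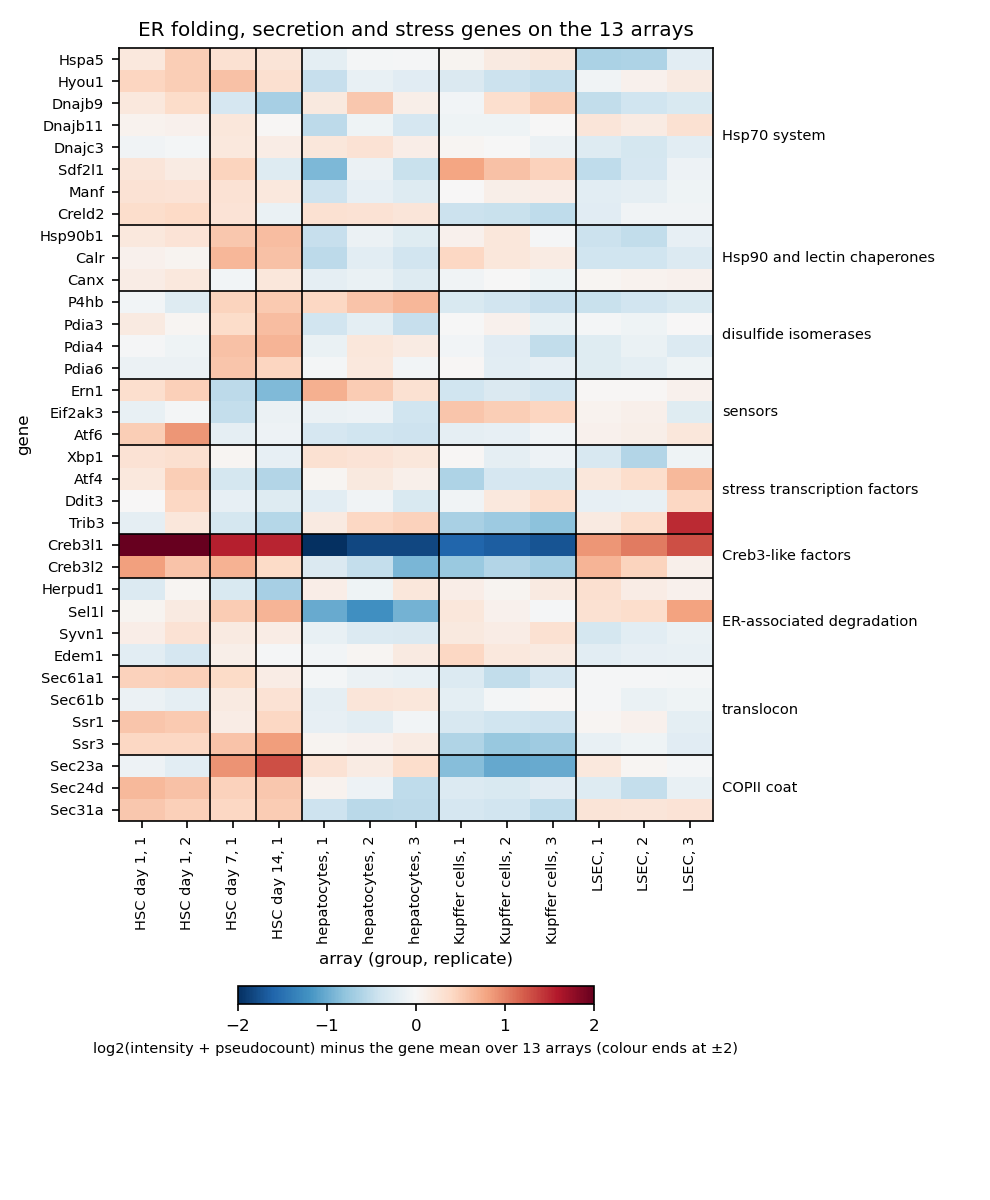
Each row is one of the 35 genes, grouped by role, and each column one of the 13 arrays; colour gives log2(intensity + 82.7) minus the gene's mean over the 13 arrays, with the colour scale ending at 2 on either side. Creb3l1 spans the full scale, high on all HSC arrays and low on hepatocyte and Kupffer cell arrays, while most other rows stay pale.

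For 27 of the 35 genes (77.1%) the highest and lowest of the 4 population means lay less than 1 log2 unit apart, as they did for 53.5% of all genes tested. The median range was 0.83, beside 0.93 over all 12081 genes tested. In at least one of the 6 pairwise comparisons 8 of 35 genes (22.9%) were called, beside 46.5% of all genes tested. Those 8 were Creb3l1, Creb3l2, Sel1l, Sec23a, Trib3, Sdf2l1, Atf6 and Ssr3. The 1-day HSC had the highest mean for 17 of the 35 genes, and the lowest for 3, where they were highest for 22.9% and lowest for 21.4% of all genes. Hepatocytes were highest for 8 and lowest for 13 (26.3% and 31.0% of all genes), Kupffer cells highest for 5 and lowest for 11 (25.4% and 30.0%), and LSEC highest for 5 and lowest for 8 (25.4% and 17.6%).

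By pairs, the calls were few. In 1-day HSC against hepatocytes, 4 genes were called higher and 0 lower, beside 12.3% and 10.1% of all genes tested. Against Kupffer cells, 1-day HSC had 3 genes higher and 0 lower (12.9% and 11.7% of all genes). Against LSEC, 1-day HSC had 1 gene higher and 0 lower (5.61% and 5.24%). Hepatocytes had 2 genes higher and 2 lower than Kupffer cells (12% and 13.7%), and 0 higher and 2 lower than LSEC (10% and 12.5%). Kupffer cells had 0 higher and 4 lower than LSEC (9.54% and 10.3%). Where a count by limma was 0, no gene reached a log2 difference of 1 at an unadjusted p below 0.05 either. The shares of these genes called were near those of all genes or below them.

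By adjusted p alone, without a minimum difference, the 1-day HSC arrays stood above the others more often than below. Against hepatocytes 19 genes were higher and 4 lower (38.9% and 28% of all genes), against Kupffer cells 16 and 2 (35.6% and 30.1%), and against LSEC 18 and 0 (21.2% and 26.4%), where 4 were lower at an unadjusted p below 0.05. Above all 3 other populations at once stood 8 genes, beside 10.7% of all genes. They were Creb3l1, the Hsp70-family chaperone Hyou1, Atf6, the translocon genes Sec61a1, Ssr1 and Ssr3, and the COPII genes Sec24d and Sec31a. No gene stood below all 3 (5.6% of all genes), also at an unadjusted p below 0.05. By the same rule hepatocytes were higher than Kupffer cells for 12 genes and lower for 10 (34.6% and 34.4%), and higher than LSEC for 10 and lower for 10 (27.4% and 42.2%). Kupffer cells were higher than LSEC for 10 and lower for 15 (25.1% and 38.6%).

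Creb3l1 varied most. It encodes OASIS, a membrane-bound transcription factor of the ER that is cut in the Golgi and that in mouse bone drives type I collagen transcription. Its probe set (10485117) had an intensity of 4311 and 4177 in 1-day HSC, against 134, 181 and 183 in hepatocytes, 229, 214 and 199 in Kupffer cells, and 1639, 1830 and 2191 in LSEC. Both 1-day HSC arrays lay above every LSEC array, and LSEC lay above hepatocytes and Kupffer cells with no overlap. The difference of 1-day HSC from LSEC, the nearest population, was 1.14 (limma, SE 0.124, adjusted p = 1.2e-05), from Kupffer cells 3.87 (adjusted p = 6.8e-11) and from hepatocytes 4.13 (adjusted p = 6.4e-11). Creb3l1 was the single gene of the 35 called higher in 1-day HSC than in each other population, beside 2.59% of all genes, and 0 were called lower (0.281%). Hepatocytes were lower than LSEC (log2 difference -2.98, adjusted p = 2.0e-10), as were Kupffer cells (log2 difference -2.72, adjusted p = 4.1e-10). The myofibroblast marker sum also placed LSEC between 1-day HSC and the other populations, though Sparc made up most of the LSEC sum. The HSC marker sum did not, at 2002 to 2714 on LSEC arrays and 3952 to 5567 on Kupffer cell arrays. The part of HSC or other fibroblastic cells in the LSEC signal was not tested.

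**Figure D2:**
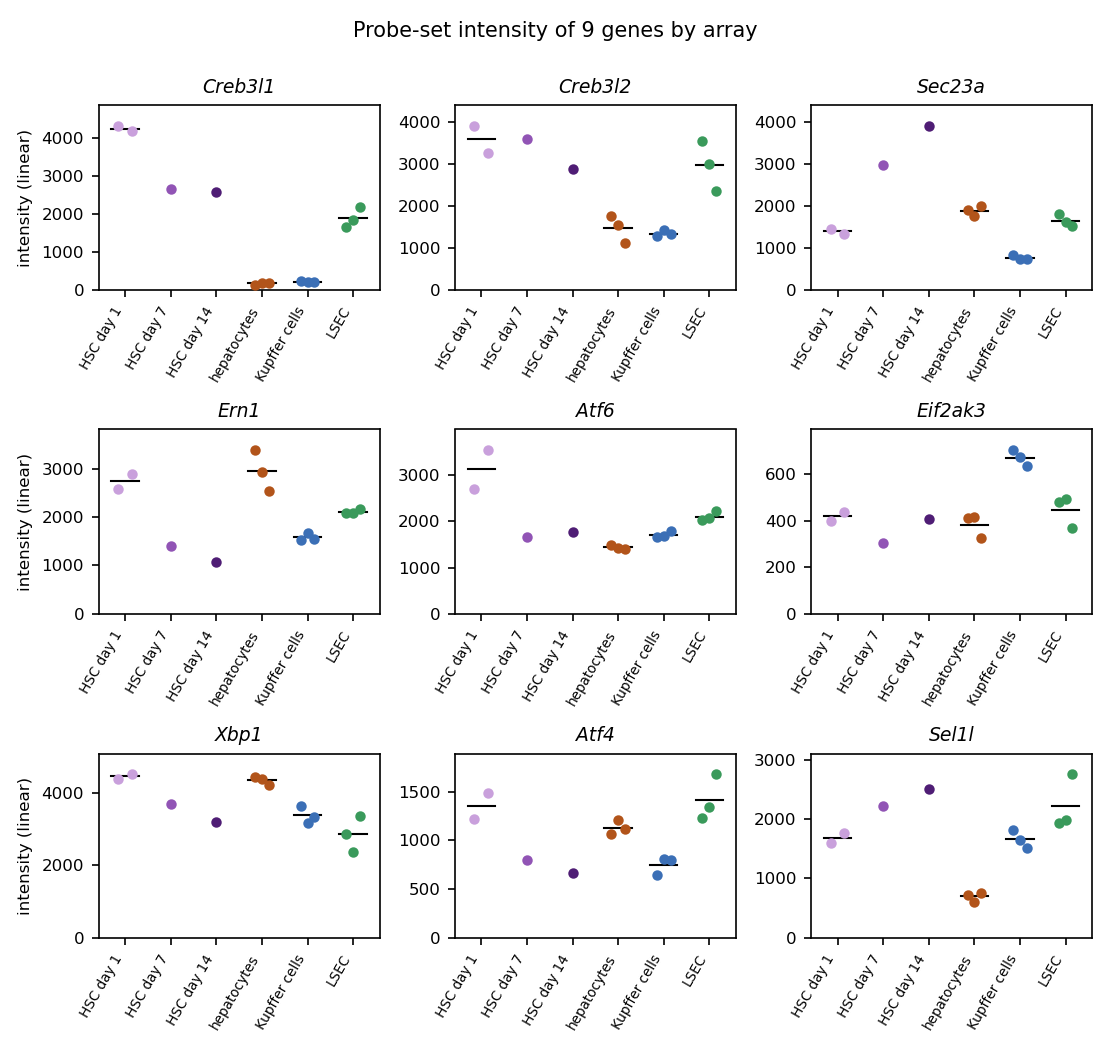
Each panel plots the linear probe-set intensity of one gene on every array, by group, with a line at the mean where a group has more than one array. Creb3l1 lies at 4177 and 4311 in 1-day HSC and at 134 to 229 in hepatocytes and Kupffer cells, Sec23a climbs to 3904 at day 14, and Ern1 reaches its lowest value of 1072 there.

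Creb3l2, the closest relative of Creb3l1, encodes BBF2H7, which in mouse cartilage activates Sec23a and so the export of matrix proteins. Its intensity (probe set 10544002) was 3908 and 3269 in 1-day HSC, against 1768, 1544 and 1123 in hepatocytes, 1274, 1422 and 1328 in Kupffer cells, and 3547, 3011 and 2352 in LSEC. The 1-day HSC overlapped LSEC and lay above hepatocytes and Kupffer cells on every array. In limma, 1-day HSC were higher than Kupffer cells by 1.36 (adjusted p = 3.1e-05) and than hepatocytes by 1.25 (adjusted p = 6.8e-05), with no call against LSEC (0.28, adjusted p = 0.24). Kupffer cells were lower than LSEC by a log2 difference of -1.08 (adjusted p = 8.9e-05), which was -0.95 and no longer a call without LSEC replicate 1. The difference of hepatocytes from LSEC was -0.97 (adjusted p = 0.00019), just short of a call.

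Of the 3 sensors, Atf6 was the one called in a population pair. Its probe set (10359982) read 2705 and 3543 in 1-day HSC, against 1481, 1421 and 1405 in hepatocytes, 1656, 1680 and 1800 in Kupffer cells, and 2021, 2065 and 2223 in LSEC. Both 1-day HSC arrays were above the other 9 arrays, and they were farther apart than the arrays of any other group. The log2 difference of 1-day HSC from hepatocytes was 1.07 (limma, SE 0.106, adjusted p = 2.4e-06), from Kupffer cells 0.83 (adjusted p = 2.1e-05) and from LSEC 0.54 (adjusted p = 0.0012). The call against hepatocytes was lost without the second 1-day array (0.88) and under quantile normalization (0.98).

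Ern1, the sensor that splices Xbp1, had an intensity (probe set 10392183) of 2587 and 2884 in 1-day HSC, 3383, 2932 and 2526 in hepatocytes, 1530, 1662 and 1548 in Kupffer cells, and 2073, 2072 and 2174 in LSEC. Kupffer cells were lowest on every array and 1-day HSC overlapped hepatocytes. No pair reached a log2 difference of 1: hepatocytes minus Kupffer cells was 0.86 (limma, adjusted p = 6.5e-06). Eif2ak3, which encodes PERK, ran the other way (probe set 10538939), at 400 and 436 in 1-day HSC, 410, 416 and 324 in hepatocytes, 703, 673 and 636 in Kupffer cells, and 478, 492 and 369 in LSEC. The 3 Kupffer cell arrays were above all others, while the other populations overlapped. Hepatocytes minus Kupffer cells was -0.70 (adjusted p = 9.2e-05) and Kupffer cells minus LSEC was 0.52 (adjusted p = 0.0011), neither large enough for a call.

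Among the transcription factors downstream, Xbp1, the target of Ern1 splicing, had an intensity (probe set 10374035) of 4394 and 4524 in 1-day HSC, 4452, 4379 and 4228 in hepatocytes, 3652, 3158 and 3334 in Kupffer cells, and 2857, 2358 and 3372 in LSEC. The 1-day HSC and the hepatocytes overlapped and lay above all Kupffer cell and LSEC arrays. Hepatocytes minus LSEC was 0.60 (limma, adjusted p = 0.00037) and 1-day HSC minus LSEC 0.64 (adjusted p = 0.0011).

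Atf4, the factor whose translation PERK favours, read 1224 and 1491 in 1-day HSC, 1070, 1207 and 1119 in hepatocytes, 647, 808 and 796 in Kupffer cells, and 1227, 1345 and 1683 in LSEC (probe set 10425364). The 3 Kupffer cell arrays were the lowest of the 11. Kupffer cells minus LSEC was -0.84 (limma, adjusted p = 6.3e-05) and hepatocytes minus Kupffer cells 0.55 (adjusted p = 0.0016).

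Trib3, a pseudokinase induced by ATF4 and CHOP, had 410 and 570 in 1-day HSC, 551, 663 and 685 in hepatocytes, 275, 257 and 234 in Kupffer cells, and 551, 630 and 1484 in LSEC. Kupffer cells were again lowest on every array, and LSEC replicate 3 stood far above the other 2 LSEC arrays. Hepatocytes were called higher than Kupffer cells (1.08, limma adjusted p = 0.0027), and Kupffer cells were called lower than LSEC (-1.40, adjusted p = 0.00047). Without LSEC replicate 3, Kupffer cells minus LSEC was -0.99, and with the pooled median as pseudocount hepatocytes minus Kupffer cells was 0.83, neither a call. Ddit3, which encodes the pro-apoptotic factor CHOP, had 584 and 797 in 1-day HSC, 486, 547 and 451 in hepatocytes, 547, 684 and 752 in Kupffer cells, and 507, 511 and 801 in LSEC (probe set 10366881). Its groups overlapped and no pair passed, with adjusted p from 0.068 to 0.82.

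Sel1l, the scaffold of the ER-associated degradation complex, set hepatocytes apart. Its probe set (10401900) read 728, 608 and 755 in hepatocytes, against 1816, 1640 and 1512 in Kupffer cells, 1927, 1977 and 2759 in LSEC, and 1604 and 1760 in 1-day HSC. All 3 hepatocyte arrays lay below all others, and LSEC lay above the other populations. Hepatocytes were lower than Kupffer cells, the nearest population, by a log2 difference of -1.16 (limma, adjusted p = 5.5e-06) and than LSEC by -1.55 (adjusted p = 4.4e-07), and 1-day HSC were higher than hepatocytes by 1.18 (adjusted p = 1.7e-05). It was the single gene of the 35 called lower in hepatocytes than in each other population, beside 2.72% of all genes, and 0 were called higher (6.8%; 2 were higher by adjusted p alone, Dnajc3 and P4hb, beside 15.9%). By adjusted p alone 4 were lower, with Dnajb11, Pdia3 and Atf6 beside Sel1l (16.3%). The partner ligase Syvn1 averaged 917 ± 72.9 in 1-day HSC, 650 ± 42.5 in hepatocytes, 922 ± 58.2 in Kupffer cells and 653 ± 56.4 in LSEC (SD, n = 2, 3, 3 and 3), and neither it nor Edem1 nor Herpud1 was called in any pair.

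Kupffer cells and LSEC had no gene of the 35 called apart from all other populations in limma, in either direction, beside 6.53% higher and 2.28% lower of all genes for Kupffer cells, and 2.35% and 0.406% for LSEC. At an unadjusted p below 0.05, none had a log2 difference of 1 there either. By adjusted p alone, Kupffer cells were below each other population for 8 genes (15.5% of all genes) and above for 1 (16.3%). The 8 were Creld2, Ern1, Atf4, Trib3, Sec61a1, Ssr1, Ssr3 and Sec23a, and the 1 was Eif2ak3. LSEC were below for 2, Hspa5 and its cochaperone Dnajb9 (3.17%), and above for 0 (11.1%; 1 at an unadjusted p below 0.05).

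The COPII coat genes, which form the vesicles that leave the ER, differed among themselves. Sec23a, part of the inner coat, had an intensity (probe set 10400515) of 1441 and 1337 in 1-day HSC, 1910, 1748 and 2000 in hepatocytes, 822, 726 and 731 in Kupffer cells, and 1806, 1604 and 1517 in LSEC. Every Kupffer cell array lay far below all others. Hepatocytes were called higher than Kupffer cells (1.23, limma adjusted p = 7.1e-08), and Kupffer cells were called lower than LSEC (-1.03, adjusted p = 5.5e-07; -0.97 and no call without LSEC replicate 1, and -0.95 under quantile normalization).

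Sec24d, the cargo adaptor of the coat, averaged 2121 ± 82.5 in 1-day HSC, 1200 ± 248 in hepatocytes, 1109 ± 34.7 in Kupffer cells and 1094 ± 130 in LSEC, and 1-day HSC exceeded each by 0.80 to 0.91 log2 units. Sec31a, of the outer coat, averaged 4428 ± 153 in 1-day HSC, 2176 ± 114 in hepatocytes, 2308 ± 138 in Kupffer cells and 3711 ± 55.0 in LSEC (SD, n = 2, 3, 3 and 3). The log2 difference of 1-day HSC from hepatocytes was just short of 1 for Sec31a (limma, SE 0.083, adjusted p = 4.4e-07). Of the translocon genes, Ssr3, a subunit of the translocon-associated complex, reached 4371 ± 8.4 in 1-day HSC, against 1986 ± 118 in Kupffer cells, a called difference of 1.11 (adjusted p = 1.4e-07). Sec61a1, the channel itself, averaged 8287 ± 86.9 in 1-day HSC, 5531 ± 233 in hepatocytes, 4620 ± 355 in Kupffer cells and 5841 ± 32.3 in LSEC, and no pair was called.

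The 11 chaperone genes of the Hsp70, Hsp90 and lectin systems had population means from 0.37 (Canx) to 1.10 (Sdf2l1) log2 units apart, beside a median of 0.93 over all genes. Hspa5, the most central of them, read 7007 and 8527 in 1-day HSC, 5273, 5872 and 5935 in hepatocytes, 6305, 6892 and 7100 in Kupffer cells, and 3871, 3939 and 5248 in LSEC (probe set 10471586). The LSEC arrays were the 3 lowest of the 11, and 1-day HSC overlapped Kupffer cells. The widest difference, 1-day HSC minus LSEC, was 0.83 (limma, adjusted p = 0.00031). Sdf2l1, a cofactor of BiP, was the one chaperone gene called in a pair, at 352, 662 and 512 in hepatocytes against 1314, 1131 and 1035 in Kupffer cells. The groups did not overlap, with a log2 difference of -1.10 (adjusted p = 8.6e-05; -0.89 without hepatocyte replicate 1). Kupffer cell arrays were also those with the higher plasma and B cell markers given above, and the part of such cells in the Sdf2l1 difference was not tested. P4hb, a disulfide isomerase that is also a subunit of collagen prolyl hydroxylase, averaged 6607 ± 557 in hepatocytes, against 3432 ± 204 in Kupffer cells and 3423 ± 172 in LSEC, and 4030 ± 396 in 1-day HSC (SD, n = 3, 3, 3 and 2). Hepatocytes exceeded Kupffer cells and LSEC by 0.93 each (adjusted p = 1.2e-06 and 1.4e-06).

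The second question was how these genes differed after longer culture, in which HSC become myofibroblast-like. The 7-day and 14-day arrays formed one group, set against both arrays of day 1, in a fit over all 13 arrays, so the spread came largely from the other groups. In this comparison 1 gene of 35 was called higher and 1 lower, beside 5.52% and 4.27% of the 12368 genes tested. By adjusted p alone, 10 were higher and 6 lower, beside 18.7% and 25.2%. The median log2 difference of the 35 genes was -0.07, against -0.04 over all genes tested. For 12 of the 35 genes both later arrays lay above both day 1 arrays, which held for 31.7% of all genes, and for 13 both lay below (41.3% of all genes). Between day 1 and the later days the hepatocyte and LSEC marker sums were also lower and the myofibroblast and the mesothelial and portal fibroblast sums higher, as given above. The part of these in the culture differences was not tested.

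**Figure D3:**
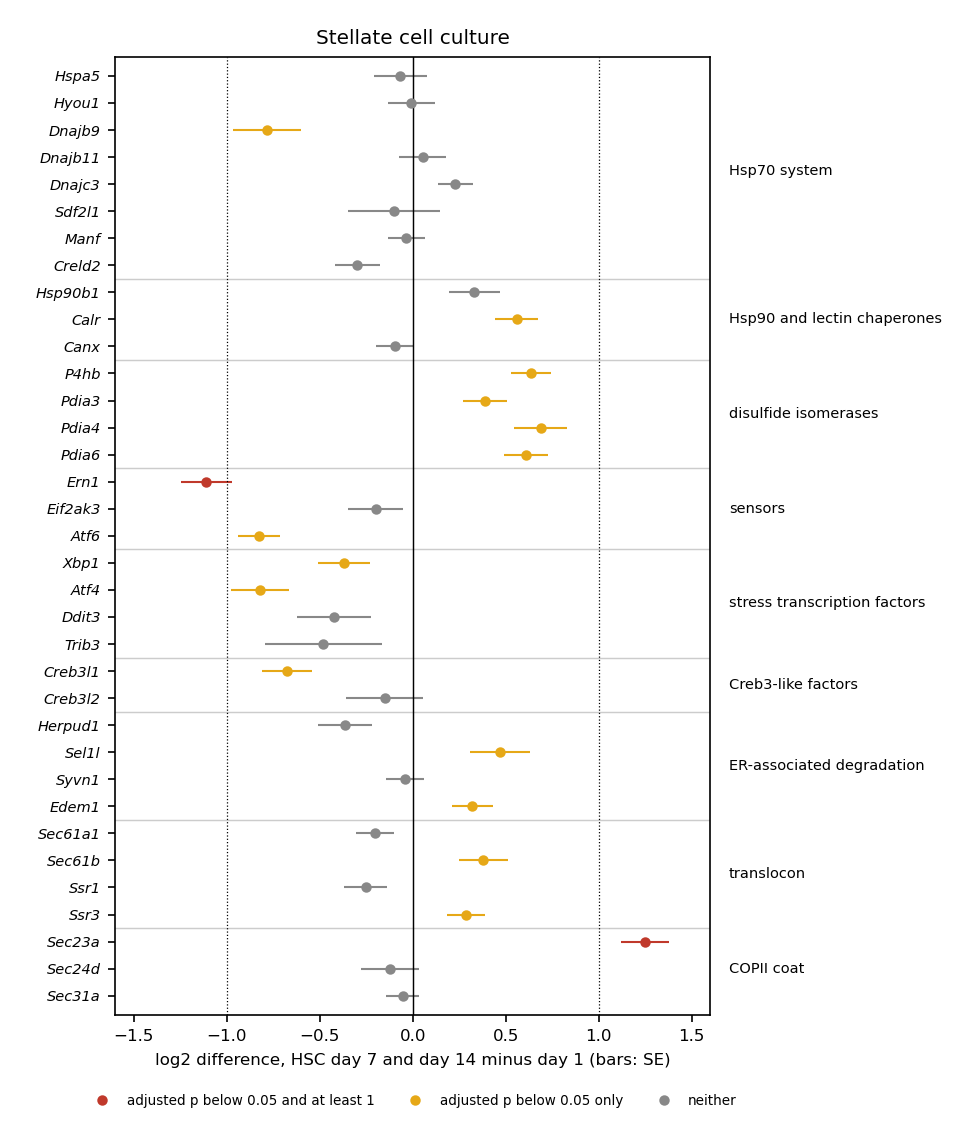
Points give the log2 difference of 7-day and 14-day HSC minus 1-day HSC for each of the 35 genes, grouped by role, with bars of 1 SE; dotted lines stand at a difference of 1 in either direction. Sec23a at 1.25 and Ern1 at -1.11 lie beyond the lines, all 4 disulfide isomerases lie to the right of 0 and all sensors and stress transcription factors to the left.

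Sec23a rose with culture. Its intensity was 1441 and 1337 at day 1, 2977 at day 7 and 3904 at day 14. Both later arrays were above both day 1 arrays and also above every hepatocyte, Kupffer cell and LSEC array. The log2 difference was 1.25 (limma, SE 0.130, adjusted p = 1.1e-05). Its coat partners did not pass, with -0.12 for Sec24d (adjusted p = 0.57) and -0.05 for Sec31a (adjusted p = 0.67).

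Ern1 fell. Its intensity was 2587 and 2884 at day 1, 1390 at day 7 and 1072 at day 14, and the later arrays were below all other arrays of the study. The log2 difference was -1.11 (limma, SE 0.138, adjusted p = 4.1e-05), and it was -0.93 without the 14-day array, where the adjusted p was 0.00052. Atf6 read 2705 and 3543 at day 1, 1656 at day 7 and 1763 at day 14, with both later arrays below both day 1 arrays. Its difference was -0.83 (limma, adjusted p = 9.6e-05). Without 1-day HSC replicate 1, which leaves only the higher day 1 array at 3543, the difference was -1.02. The day 1 array left out there, at 2705, lay nearer the later arrays. Eif2ak3, at 400 and 436 at day 1, 304 at day 7 and 408 at day 14, overlapped between the times (-0.20, adjusted p = 0.30).

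For each of the stress transcription factors both later arrays lay below both day 1 arrays, which held for 41.3% of all genes. Atf4 read 1224 and 1491 at day 1, 798 at day 7 and 664 at day 14 (log2 difference -0.82, limma adjusted p = 0.00091). Xbp1 read 4394 and 4524 at day 1, 3698 at day 7 and 3188 at day 14 (-0.37, adjusted p = 0.047). These 2 were lower by adjusted p alone, beside 25.2% of all genes, and neither reached a difference of 1. Ddit3, with 584 and 797 at day 1, 507 at day 7 and 469 at day 14, did not pass (-0.42, adjusted p = 0.10), nor did Trib3 (-0.48, adjusted p = 0.25).

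Creb3l1, highest at day 1, read 4311 and 4177 at day 1, 2665 at day 7 and 2585 at day 14. The later arrays were below those of day 1 yet above every array of the freshly sorted cells. The difference was -0.68 (limma, SE 0.132, adjusted p = 0.0012), under the size threshold. Creb3l2 overlapped between the times, with 3908 and 3269 at day 1, 3589 at day 7 and 2871 at day 14 (-0.15, adjusted p = 0.60).

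The disulfide isomerases form and rearrange the disulfide bonds of folding proteins. All 4 were higher by adjusted p alone, beside 18.7% of all genes, and none reached a difference of 1. No other role had all its genes pass in 1 direction, and no role was tested as a set. P4hb had 4310 and 3750 at day 1, 6121 at day 7 and 6468 at day 14 (log2 difference 0.64, limma adjusted p = 0.00043). Pdia4 had 2777 and 2632 at day 1, 4245 at day 7 and 4573 at day 14 (0.69). In Pdia6 the values were 1036 and 1036 at day 1, 1695 at day 7 and 1552 at day 14 (0.61), and in Pdia3 they were 5418 and 4887 at day 1, 6195 at day 7 and 7356 at day 14 (0.39). Both later arrays were above both day 1 arrays for all 4 genes, which held for 31.7% of all genes. The lectin chaperone Calr had 5063 and 4943 at day 1, 7614 at day 7 and 7204 at day 14 (0.56, adjusted p = 0.0016), while its membrane-bound relative Canx did not pass (-0.10).

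Of the other chaperones, Hsp90b1 had 4858 and 5046 at day 1, 6103 at day 7 and 6405 at day 14 (log2 difference 0.33, limma adjusted p = 0.063). Dnajc3 had 1658 and 1694 at day 1, 2024 at day 7 and 1936 at day 14 (0.23, adjusted p = 0.060). For both, the later arrays were above those of day 1 and the test was not passed. Hspa5 read 7007 and 8527 at day 1, 7518 at day 7 and 7236 at day 14, so the times overlapped (log2 difference -0.07, limma adjusted p = 0.75). Of the 8 genes of the Hsp70 system 1 passed by adjusted p alone, the cochaperone Dnajb9, at 2741 and 3063 at day 1, 1862 at day 7 and 1458 at day 14 (-0.78, adjusted p = 0.0037). The 8 genes with a full ERSE in the promoter window had a median culture difference of 0.09, from -0.30 to 0.61, and the other 22 genes with a window had a median of -0.11, from -1.11 to 1.25. In the degradation pathway Sel1l (0.47) and the mannosidase-like lectin Edem1 (0.32) passed by adjusted p alone, and in the translocon Sec61b (0.38) and Ssr3 (0.29) did. Sec61b has 3 probe sets on the array, and all 3 read higher on both later arrays than on both day 1 arrays.

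Days 7 and 14 had 1 array each and could be compared by value alone. The 14-day array minus the 7-day array had a median log2 difference of -0.06 over the 35 genes, beside -0.05 over all genes tested. The genes ranged from -0.71 for Sdf2l1 (1028 at day 7 and 599 at day 14) to 0.38 for Sec23a, while 5% to 95% of all genes lay between -0.54 and 0.35. None of the 35 differed by 1 or more, which 1.57% of all genes did.

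Set against hepatocytes, the later HSC arrays had 4 genes called higher and 1 lower, beside 13.1% and 9.98% of all genes. By adjusted p alone 21 were higher and 6 lower, beside 32.7% and 31.3%. Creb3l1 was higher by 3.45 (limma, SE 0.121, adjusted p = 5.8e-11), Sel1l by 1.65 (adjusted p = 5.0e-07), Creb3l2 by 1.10 (adjusted p = 0.00021) and Calr by 1.00 (adjusted p = 2.4e-06). Calr had 7614 and 7204 at days 7 and 14, against 3296, 4102 and 3621 in hepatocytes, with no overlap, and its difference was 0.93 to 0.99 and no longer a call in 5 of the other settings. Creb3l2 was no call without hepatocyte replicate 3 (0.92) or the 7-day array (0.94). Ern1 was lower by a log2 difference of -1.21 (adjusted p = 2.4e-06). P4hb, at 6121 and 6468 against 6018, 6679 and 7124 in hepatocytes, overlapped (-0.07, adjusted p = 0.58). The COPII genes were higher by 0.83 (Sec23a), 0.68 (Sec24d) and 0.94 (Sec31a), each passing by adjusted p alone. These comparisons share the later HSC arrays with the culture comparison and hepatocytes with the population comparison.

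Other genes of the same pathways, from lists written from textbook knowledge, showed a few large changes with culture. Of 13 ER calcium-binding and calcium-handling genes tested, 2 were called higher and 0 lower, beside 5.52% and 4.27% of all genes. Without the size threshold 8 were higher and 1 lower (18.7% and 25.2%), with a median log2 difference of 0.74 beside -0.04 over all genes. The calcium-binding protein Rcn3 had 1267 and 1189 at day 1, 5077 at day 7 and 4198 at day 14 (1.84, limma adjusted p = 4.9e-06), Nucb1 was called too (1.15), and Rcn2 was not (0.88). Of 18 other isomerases and oxidases 2 were called higher and 0 lower (the same 5.52% and 4.27% of all genes), the prolyl isomerase Fkbp14 (1.31) and the collagen prolyl hydroxylase subunit P4ha1 (1.17), and 10 passed upward by adjusted p alone with 0 downward (18.7% and 25.2%; 1 downward at an unadjusted p below 0.05). Qsox1 (0.97) was not called. P4ha1, whose protein pairs with P4hb, had 1666 and 1704 at day 1, 3566 at day 7 and 4231 at day 14.

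The shares of all genes called in the culture comparison, 5.52% higher and 4.27% lower, apply to the counts that follow. Of 13 COPI genes, which run the return traffic from the Golgi, 1 was called higher and 0 lower. It was Copz2, with 706 and 635 at day 1, 3000 at day 7 and 3282 at day 14 (log2 difference 2.10), and Copg1 was not (0.57). Of 29 other COPII and ER exit genes 2 were called higher and 0 lower, a share near that of all genes, namely Kdelr3 (1.20), a receptor that returns chaperones to the ER, and Ergic3 (1.12), and Mia2 was not called (-0.62). Of 13 other sensors and stress factors 2 were called higher, Creb3 (1.41) and Eif2ak2 (1.04), and 0 lower, and Atf6b was not called (-0.84). In 17 other genes of ER-associated degradation, 16 of N-glycosylation and 19 of translocation, limma called 0 in either direction. Where a list had a count of 0, no gene of it had a difference of 1 in that direction at an unadjusted p below 0.05 either. The widest differences there were -0.48 (Aup1), 0.70 (Tusc3) and -0.58 (Srpr).

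**Figure D4:**
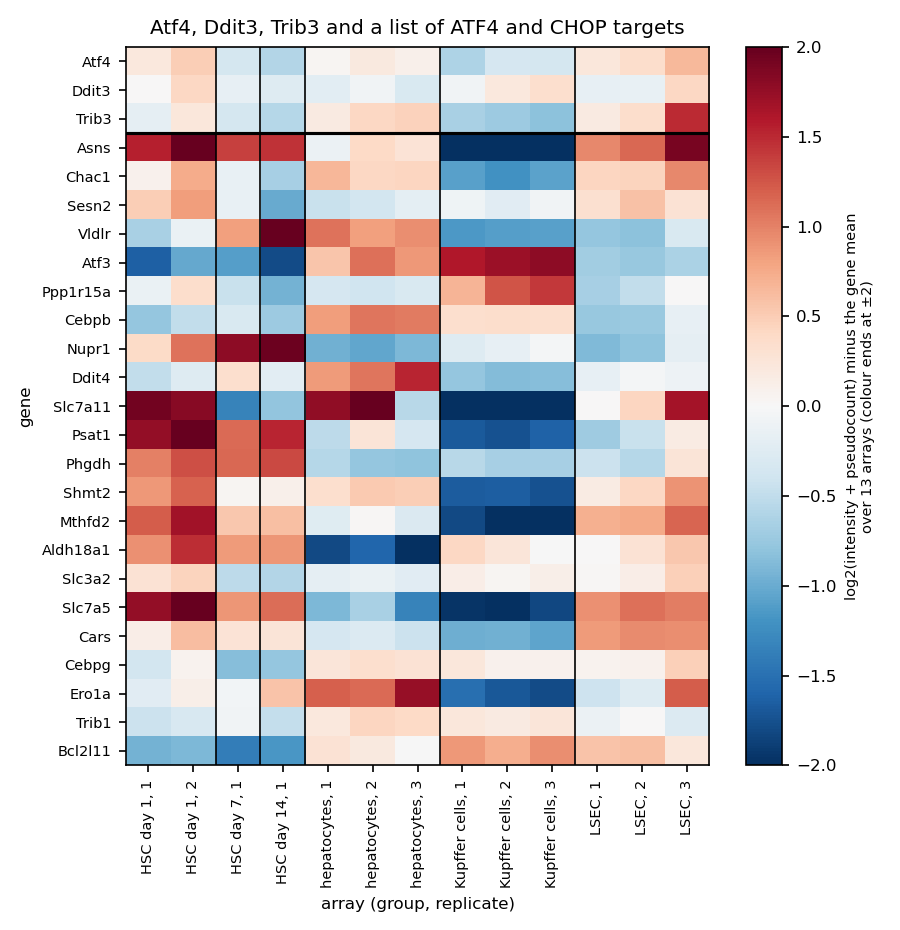
Rows are Atf4, Ddit3, Trib3 and 22 genes listed as targets of ATF4 or CHOP, columns the 13 arrays, and colour log2(intensity + 82.7) minus the gene's mean over the arrays, ending at 2 on either side. Asns, Slc7a11, Shmt2, Mthfd2 and Slc7a5 are deep blue on the 3 Kupffer cell arrays, and Atf3 and Ppp1r15a are red there.

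The 22 listed targets of ATF4 and CHOP, many of them genes of amino acid supply, were measured beside the low Atf4 and Trib3 of Kupffer cells. In Kupffer cells 8 of 22 were called lower than in each other population and 1 higher, beside 2.28% and 6.53% of all genes. Asns, asparagine synthetase, had 88, 121 and 111 in Kupffer cells, against 2110, 3038 and 2781 in hepatocytes and 4527, 5182 and 8794 in LSEC, with 6877 and 9763 in 1-day HSC. No Kupffer cell array came near any other, and the difference from hepatocytes, the nearest, was 3.84 as hepatocytes minus Kupffer cells (limma, adjusted p = 7.9e-09). Slc7a11, the cystine transporter, had 117, 107 and 86 in Kupffer cells, and its nearest difference was -3.07. Shmt2, of mitochondrial serine use, had 458, 462 and 429 (-2.14). The 1 called higher was Ppp1r15a (1.01), which encodes the phosphatase subunit that reverses PERK's effect, and Atf3 was not called (0.86).

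With culture, 2 of the 22 targets were called higher and 2 lower, beside 5.52% and 4.27% of all genes. Without the size threshold 2 were higher and 9 lower (18.7% and 25.2%), with a median log2 difference of -0.37 beside -0.04 over all genes. Slc7a11 had 3600 and 3308 in 1-day HSC, 300 at day 7 and 472 at day 14 (log2 difference -2.94, limma SE 0.699, adjusted p = 0.0043). In hepatocytes, whose spread enters that SE, replicate 3 at 573 lay far below the other 2 arrays at 3202 and 4281. Sesn2 was called lower (-1.24), Vldlr higher (1.96), and Shmt2 was not called (-0.95). In 1-day HSC, set against each other population, 2 of 22 were called higher, the serine synthesis genes Psat1 (2.20) and Phgdh (1.39), and 1 lower, Bcl2l11 (-1.08), beside 2.59% and 0.281% of all genes.

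Single genes of other lists also set a population apart. In hepatocytes Mia2, which encodes a cargo receptor at ER exit sites, was higher than in each other population (3.66), as was Creb3l3 (1.93), the liver member of the family of Creb3l1. In 1-day HSC these were Uggt2 (2.29), of the enzymes that tag unfolded glycoproteins with glucose, and Kdelr3 (1.49), and in Kupffer cells Kdelr3 was lower than in each other population (-1.80). In the later HSC arrays against hepatocytes, 13.1% of all genes were called higher and 9.98% lower. There 7 of 13 ER calcium genes were called higher and 0 lower, led by Rcn3 (4.03), Rcn1 (2.55) and Calu (2.32), and 5 of 13 COPI genes higher and 0 lower. N-glycosylation genes had 4 of 16 higher and 0 lower, other isomerases and oxidases 3 of 18 higher and 1 lower, and other COPII and ER exit genes 3 of 29 higher and 1 lower. Other sensors and stress factors had 3 of 13 higher and 1 lower, other translocation genes 1 of 19 higher and 0 lower, and other degradation genes 1 of 17 higher and 1 lower. Of the 22 ATF4 and CHOP targets 6 were called higher and 7 lower. At an unadjusted p below 0.05 the counts of 0 were also 0 for a difference of 1.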

How the data were processed

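Values came as a single linear intensity for every probe set on every array, as deposited, with 25194 probe sets and values of 10.6 to 28854. Among the submitters' processing notes are Affymetrix Expression Console and MAS5 (version 5.0), with no role stated. How background was corrected, how arrays were normalized and on which genome build is not given in the sources used here. Per-array medians lay between 216.5 and 232.9, and arrays of a group correlated at 0.9859 to 0.9957 across probe sets, which are not independent replicates. The intensities were used without further normalization. Each of 19537 genes with a single symbol was read from its probe set of highest mean, retained where 2 or more arrays of a fit exceeded the pooled median of 224.5, and taken as log2(intensity + 82.7), 82.7 being the pooled 20th percentile. All 35 genes passed.

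In R 4.3.3, limma 3.58.1 (lmFit, eBayes, two-sided, Benjamini-Hochberg within each contrast) compared the 4 populations over 11 arrays and 12081 genes, with 7 residual degrees of freedom. It compared 7-day and 14-day HSC, treated as replicates, with 1-day HSC and hepatocytes over 13 arrays and 12368 genes, with 8. A gene set apart had to be called against each of the other 3 populations in 1 direction, and the value printed is the difference from the nearest. The fits were tested on simulated data. Alternatives changed the pseudocount, normalization, filter, probe rule, variance trend, size threshold, replicate block and arrays included.

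Promoter stretches come from RefSeq (GRCm38.p6), in windows of 300 bases, the first listed where a gene had several, and none were used for Hyou1, Manf, Atf6, Creb3l1 and Sec61a1. Genes were named by role, by calls and by a set of anchor genes, with up to 3 called and 1 uncalled gene from each other list. The genes, lists and tests were chosen with earlier results of these data known, and support nothing independently.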

Additional observations from a re-analysis of the deposited data

How the results depend on the processing

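Counts of the 35 genes called depended most on the size threshold. Without a minimum log2 difference the counts were, higher and lower, 19 and 4 for 1-day HSC against hepatocytes, 16 and 2 against Kupffer cells, 18 higher against LSEC, 12 and 10 for hepatocytes against Kupffer cells, 10 and 10 for hepatocytes against LSEC, 10 and 15 for Kupffer cells against LSEC, 10 and 6 for the culture comparison, and 21 and 6 for later HSC against hepatocytes. Set apart in this way were 8 higher in 1-day HSC, 2 higher and 4 lower in hepatocytes, 1 higher and 8 lower in Kupffer cells, and 2 lower in LSEC. With the pooled median as pseudocount, hepatocytes against Kupffer cells kept 1 of 2 higher (Trib3 lost) and 1 of 2 lower (Sdf2l1 lost). A pseudocount of 16, and quantile normalization, each added 1 gene higher in Kupffer cells than in LSEC. Leaving out 1 array at a time gave 1 to 2 lower in hepatocytes against Kupffer cells, 0 to 1 higher and 2 to 4 lower in Kupffer cells against LSEC, 0 to 2 lower in the culture comparison, and 2 to 4 higher in later HSC against hepatocytes. The culture fall was lost without the 14-day array (Ern1) and became 2 without 1-day HSC replicate 1. Later HSC against hepatocytes fell to 2 without hepatocyte replicate 3. Single genes were followed only in the comparisons where the main setting called them. Among these none reversed: 373 values kept the call and 18 lost it in the same direction. The setting without a size threshold, which asks less for a call, is included. With the replicate block every population count was as before, for example 4 higher in 1-day HSC against hepatocytes. Deviations of same-numbered arrays correlated at -0.11 to 0.11 over 15 pairs, 2 of them above 0.1. With so few arrays and different cell types, this cannot tell whether same-numbered arrays share an animal or a preparation. The culture comparison had no blocked fit, since the later arrays carry no replicate number. The cause of these shifts was not tested.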

Other observations

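Within 2 of the groups, 1 array read higher than its fellows for the listed ATF4 and CHOP targets; this was noticed after the values were seen and was not tested. LSEC replicate 3 was the highest of the 3 LSEC arrays for 16 of 22 targets (72.7%), with a median log2 difference of 0.46 from the other 2, where it was highest for 31.9% of all genes tested, with a median of -0.01. It was also highest for 25 of the 35 ER genes (71.4%), with a median of 0.11. The LSEC marker sum of that array stood at 82.2% of the LSEC mean, against 113% and 105% for the other 2. In 1-day HSC, replicate 2 was above replicate 1 for 21 of 22 targets (95.5%), with a median of 0.39. It was above for 52.7% of all genes tested, with a median of 0.01. For the 35 ER genes it was above for 20 (57.1%), with a median of 0.02, a share near that of all genes.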
